A study of Mus musculus with 2 samples.

Results

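Negative regulators and transcriptional readouts of the ERK pathway were followed in mouse embryonic stem cells grown with and without a MEK inhibitor. The set comprised 9 genes, taken by symbol from the deposited gene table: the phosphatases Dusp4 and Dusp6, the Sprouty genes Spry1, Spry2 and Spry4, the Sprouty-related genes Spred1 and Spred2, and the ETS transcription factors Etv4 and Etv5. All 9 were found among the 32285 genes of the table, each under 1 identifier.

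The cells were of the R1 mouse embryonic stem cell line and were kept for 72 hours in N2B27, a serum-free medium, before droplet single-cell RNA sequencing. Both cultures received LIF, a self-renewal cytokine, and BMP4. The LB culture received these alone and grew on gelatin. The LBPXRS culture, on fibronectin, also received PD0325901, a MEK inhibitor, Xav939, a tankyrase inhibitor that lowers WNT signalling, SB431542, an inhibitor of the NODAL and activin receptors, and a resorcyclic lactone whose target the labels do not name. There was 1 library per condition, so no test between conditions was possible. Medium, substrate, library and culture cannot be told apart, and the 4 compounds were not tested singly. After removal of barcodes with few genes or much mitochondrial RNA, LB held 1783 cells with a median of 25418 UMIs (unique molecular identifiers, 1 per captured RNA molecule) and LBPXRS 2705 cells with a median of 19058. The kept cells of the libraries shared 8 barcodes. All intervals given are exact 95% intervals for counting error alone.

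As background, fibroblast growth factors bind receptor tyrosine kinases, which activate RAS, RAF, MEK and ERK in turn, and active ERK raises transcription of its own inhibitors. DUSP6 is a cytoplasmic phosphatase that removes the activating phosphates of ERK, and DUSP4 is a nuclear phosphatase that acts on ERK and on the stress kinases JNK and p38. Sprouty and SPRED proteins act upstream, between receptor and RAF, and ETV4 and ETV5 are ETS-family activators induced by FGF signalling. In mouse embryonic stem cells FGF4 is the main autocrine ligand of this pathway, which primes the cells to leave naive pluripotency, and MEK inhibition is one of the treatments used to hold them in it.

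The pluripotency genes Pou5f1 and Sox2 together reached 841 CPM (UMIs per 1000000 UMIs of the library) in LB and 1222 CPM in LBPXRS. LB was a mixture. Its 10 listed mesoderm markers summed to 241 CPM against 6.10 CPM in LBPXRS, where Hand1 was at 0, its 10 primitive streak markers to 232 CPM against 18.1 CPM, with Evx1 at 0 in LBPXRS, and its 10 trophoblast markers to 462 CPM against 109 CPM. Of these markers 10, 9 and 4 were lower in LBPXRS. The 11 formative or primed markers summed to 369 CPM in LB and 96.1 CPM in LBPXRS, with 10 lower, and the 12 naive markers to 1174 CPM and 1856 CPM, with 11 higher. The 13 primitive endoderm markers went the other way as a sum, with 203 CPM in LB and 519 CPM in LBPXRS, where 5 were higher and 8 lower. The part of these differences in the member values was not tested. Each member was therefore also compared with the 587 LB cells of a naive pluripotent-like cluster, in which 9 of 12 naive markers, Nanog, Esrrb and Klf4 among them, were raised over the other LB cells. No LBPXRS cluster met the rule for that name, so these cells are not a matched class. The 9 members and the pathway lists were left out of the genes used for clustering.

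To set the members beside their upstream sequence, the RefSeq promoter table (build GRCm38.p6, the C57BL/6J reference, the same base build as mm10) was searched for the ETS letters CCGGAAG, the shorter ETS letters AGGAAG, the AP-1 letters TGANTCA and the CRE letters TGACGTCA, on both strands in the 250 bases before each start. For 6 members the table gave 7 promoters that were used here, with Etv5 counted at each of its start sites. Dusp4 and Etv4 had no entry, and Spry4 was left out of the search. AGGAAG was found in 2 of the 7, those of Dusp6 and Spred2, and in 29.5% of all 32851 promoters of this length. CCGGAAG was in 0 of the 7 (6.91% of all promoters), as were the AP-1 letters (6.75%) and the CRE letters (1.55%). No searched motif contains another. Shown 5′ to 3′ are the promoters of Dusp6 and Spred2, with the matching letters in capitals (on the minus strand they read as the reverse complement), and those of Spry2 and Etv5, as examples without a match. Spred1 and Spry1 had no match either, and their folds were larger than that of Spred2. A match is a description of the letters in this window and not a site.
Dusp6, chr10:99262981-99263230, plus strand: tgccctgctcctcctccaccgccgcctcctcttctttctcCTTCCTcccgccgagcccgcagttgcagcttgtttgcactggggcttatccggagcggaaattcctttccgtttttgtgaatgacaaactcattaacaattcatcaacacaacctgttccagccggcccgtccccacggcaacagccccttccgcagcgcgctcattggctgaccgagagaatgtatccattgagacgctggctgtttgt
Spred2, chr11:19924192-19924441, plus strand: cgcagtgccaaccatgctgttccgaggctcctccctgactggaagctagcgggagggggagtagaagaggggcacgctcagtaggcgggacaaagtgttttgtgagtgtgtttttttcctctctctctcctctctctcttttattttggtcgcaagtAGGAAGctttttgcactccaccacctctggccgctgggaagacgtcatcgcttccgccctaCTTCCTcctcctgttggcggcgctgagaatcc
Spry2, chr14:105896820-105897069, minus strand: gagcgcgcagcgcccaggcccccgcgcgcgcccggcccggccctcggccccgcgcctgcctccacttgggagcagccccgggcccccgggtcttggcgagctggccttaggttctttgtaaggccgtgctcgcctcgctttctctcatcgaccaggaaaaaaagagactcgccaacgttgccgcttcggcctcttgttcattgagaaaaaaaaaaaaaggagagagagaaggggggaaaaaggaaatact
Etv5, chr16:22439571-22439820, minus strand: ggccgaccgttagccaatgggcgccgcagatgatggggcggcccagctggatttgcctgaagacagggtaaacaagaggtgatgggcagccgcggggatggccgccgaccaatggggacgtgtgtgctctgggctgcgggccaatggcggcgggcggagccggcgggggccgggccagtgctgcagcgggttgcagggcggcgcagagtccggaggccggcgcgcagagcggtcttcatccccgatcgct

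Dusp6 (ENSMUSG00000019960, chromosome 10, 99263231 to 99267489, plus strand) had 821 UMIs in LB, 18.0 CPM (16.8 to 19.3), against 45 UMIs in LBPXRS, 0.868 CPM (0.633 to 1.16). Its level in LBPXRS was 20.8-fold lower (15.4 to 28.7). Against the naive pluripotent-like LB cells, at 7.59 CPM (6.32 to 9.05), it was 8.75-fold lower (6.18 to 12.6). Dusp4 (ENSMUSG00000031530, chromosome 8, 34807297 to 34819894, plus strand), the nuclear phosphatase, differed far less, with 1196 UMIs in LB, 26.3 CPM (24.8 to 27.8), against 643 UMIs in LBPXRS, 12.4 CPM (11.5 to 13.4), a 2.12-fold lower level (1.92 to 2.34). Against naive pluripotent-like LB cells the direction turned. Dusp4 stood at 6.26 CPM (5.11 to 7.59) in those cells, below LBPXRS, with a log2 ratio of LBPXRS to these cells of 0.89. This rested mainly on 1 LBPXRS cluster of 611 cells, as Dusp4 over the other LBPXRS cells was at 4.13 CPM (3.52 to 4.82), below the 6.26 CPM. Among those other cells, a cluster of 290 was at 6.51 CPM (4.63 to 8.90), which overlaps. A cluster of 80 shallow cells was at 26.2 CPM (12.6 to 48.2). The 2 phosphatase genes thus had opposite signs in this comparison.

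The 3 Sprouty genes differed widely among themselves. Spry4 (ENSMUSG00000024427, chromosome 18, 38586247 to 38601415, minus strand) had 265 UMIs in LB, 5.83 CPM (5.15 to 6.57), against 4 UMIs in LBPXRS, 0.0772 CPM (0.0210 to 0.198). This was a 75.5-fold lower level, with a wide counting interval of 29.1 to 279 because of the 4 UMIs. Spry4 was at 7.29 CPM (6.05 to 8.72) in the naive pluripotent-like LB cells. The other LB cells were at 4.99 CPM (4.21 to 5.88), so its level was 1.46-fold higher (1.14 to 1.87) in the naive pluripotent-like ones. With finer clusters (Leiden resolution 1) these levels were 6.46 CPM (4.32 to 9.27) and, in the other cells, 5.76 CPM (5.05 to 6.54), which overlap. Spry1 (ENSMUSG00000037211, chromosome 3, 37639947 to 37644598, plus strand) had 391 UMIs in LB, 8.60 CPM (7.76 to 9.49), against 89 UMIs in LBPXRS, 1.72 CPM (1.38 to 2.11), a 5.01-fold lower level (3.97 to 6.37), and it was 4.14-fold lower (3.12 to 5.52) than in naive pluripotent-like LB cells. Spry2 (ENSMUSG00000022114, chromosome 14, 105891947 to 105896819, minus strand) kept the largest part of its LB level among the 3 Sprouty genes. It had 1308 UMIs in LB, 28.8 CPM (27.2 to 30.4), against 697 UMIs in LBPXRS, 13.4 CPM (12.5 to 14.5), a 2.14-fold lower level (1.95 to 2.35) and a 1.89-fold lower one (1.67 to 2.14) than in naive pluripotent-like LB cells. The latter turned with the clustering, since against the 157 naive pluripotent-like LB cells found at Leiden resolution 1 (finer clusters), with Spry2 at 11.1 CPM (8.26 to 14.7), the log2 ratio was 0.25. The 3 intervals for the fold against all LB cells did not overlap.

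The Sprouty-related genes lay between these. Spred1 (ENSMUSG00000027351, chromosome 2, 117121374 to 117182279, plus strand), whose product recruits neurofibromin to switch off RAS, had 681 UMIs in LB, 14.97 CPM (13.9 to 16.1), against 108 UMIs in LBPXRS, 2.08 CPM (1.71 to 2.52), a 7.18-fold lower level (5.86 to 8.89). In naive pluripotent-like LB cells it was at 5.59 CPM (4.51 to 6.86), from which LBPXRS was 2.68-fold lower (2.01 to 3.58). Spred2 (ENSMUSG00000045671, chromosome 11, 19924375 to 20024026, plus strand) had 935 UMIs in LB, 20.6 CPM (19.3 to 21.9), against 296 UMIs in LBPXRS, 5.71 CPM (5.08 to 6.40). Its fold was about the same against all LB cells, 3.599 (3.15 to 4.12), and against the naive pluripotent-like ones, 3.54 (3.02 to 4.16).

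The ETS factors, which are activators and not inhibitors, differed from each other. Etv4 (ENSMUSG00000017724, chromosome 11, 101769742 to 101785371, minus strand) had 1383 UMIs in LB, 30.4 CPM (28.8 to 32.05), against 232 UMIs in LBPXRS, 4.48 CPM (3.92 to 5.09), a 6.79-fold lower level (5.91 to 7.84) that was 5.38-fold (4.56 to 6.35) against naive pluripotent-like LB cells. Etv5 (ENSMUSG00000013089, chromosome 16, 22381309 to 22439719, minus strand) had 2824 UMIs in LB, 62.1 CPM (59.8 to 64.4), against 1993 UMIs in LBPXRS, 38.5 CPM (36.8 to 40.2), so that 61.9% of its LB level was left. It had the smallest fold of the 9 genes, 1.61 (1.52 to 1.71). Etv5 was further below the naive pluripotent-like LB cells, at 90.0 CPM (85.5 to 94.7) and 2.34-fold (2.19 to 2.51), than below LB as a whole. Spry4 also had a larger fold against these cells, 94.5 (36.0 to 352), but the 2 Spry4 intervals overlap.

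**Figure D1:**
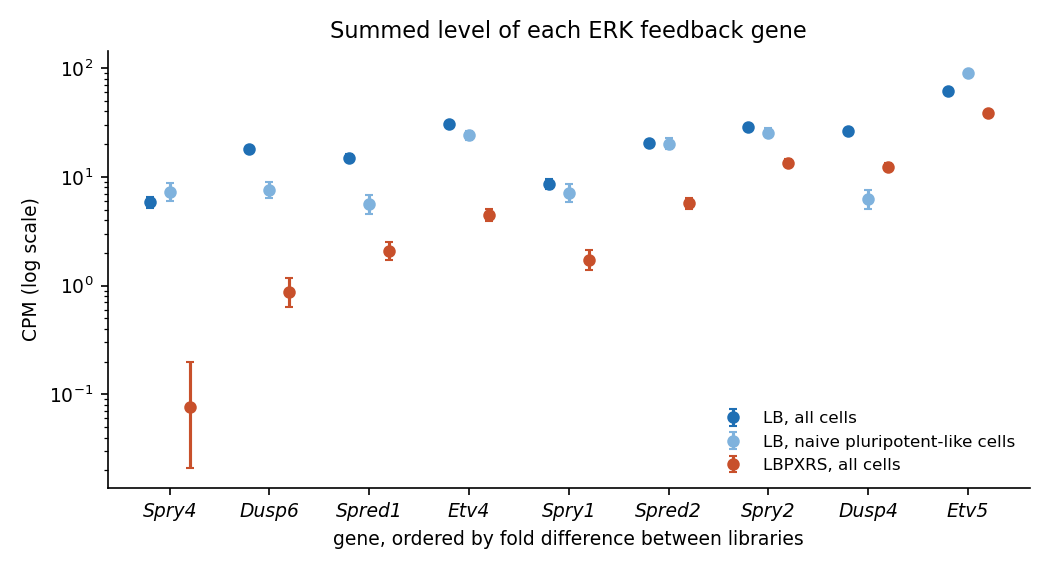
Level of each of the 9 genes in CPM on a log axis, in all LB cells, in naive pluripotent-like LB cells and in all LBPXRS cells, with exact 95% counting intervals; genes are ordered by fold difference. The LBPXRS points lie below both LB points for every gene but Dusp4, from 0.0772 CPM for Spry4 to 38.5 CPM for Etv5, and for Dusp4 the LBPXRS level of 12.4 CPM lies between the 6.26 CPM of naive pluripotent-like LB cells and the 26.3 CPM of all LB cells.

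Taken by size, 9 of 9 members were lower in LBPXRS, where 58.0% of the 12618 genes with a mean of at least 1 CPM were lower. All 9 passed that filter. On the scale of log2((CPM in LBPXRS + 1)/(CPM in LB + 1)), which understates the change of low genes such as Spry4, 8 of 9 members were at least 2-fold lower, against 11.6% of all genes, and 4 of 9 (Dusp6, Spry4, Etv4 and Spred1) at least 4-fold lower, against 2.83%. The median over the members was -1.82 and that over all genes -0.14. Spry1, 5.01-fold lower by CPM alone, was at -1.82 on this scale. With a pseudocount of 0.1 it was at -2.26 and 5 members were at least 4-fold lower, a setting in which all genes were not counted. Dusp4 at -1.03 and Spry2 at -1.04 lay just past the 2-fold line, and with TMM scaling they were at -0.88 and -0.90, which left 6 members past it. The share of all genes past this line was not counted with that scaling. Against naive pluripotent-like LB cells, 8 of 9 members were lower, where 47.0% of 12198 genes were lower. With these 587 cells as reference, 7 of 9 members were at least 2-fold lower, against 6.88% of genes, 3 of 9 (Spry4, Dusp6 and Etv4) at least 4-fold lower, against 1.33%, and the member median was -1.58 beside 0.05 for all genes. With the 157 naive pluripotent-like cells found at resolution 1 as reference, Dusp4 (1.13) and Spry2 (0.25) were higher in LBPXRS and the member median was -1.27.

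Dusp4 lies on chromosome 8 and Spred2 and Etv4 on chromosome 11. Genes of these chromosomes with a mean of at least 20 CPM were shifted between the libraries, with median log2 ratios of -0.60 over 288 genes and -0.65 over 465 genes, against -0.16 over 4731 genes of all chromosomes. The part of this shift in the Dusp4, Spred2 and Etv4 values was not tested. The other 6 members lie on chromosomes with medians from -0.17 to -0.07.

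Within LB the members did not share 1 pattern over cell classes. The cells formed 7 clusters. Besides the naive pluripotent-like cluster these were a mesoderm-like cluster of 356 cells, a formative or primed pluripotent-like cluster of 313 cells, a primitive streak-like cluster of 225 cells led also by the interferon-response genes Isg15 and Rtp4, a trophoblast-like cluster of 74 cells led also by Cxcl10 and Acta1, and 2 clusters without a name, one of 167 cells led by Calb2 and one of 61 shallow cells (median 10944 UMIs) led by Slc7a3, Pmel and Spp1. The names rest on clusters rebuilt here. With 1 library, levels by cluster have counting intervals and no spread over samples.

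Dusp6 and Dusp4 were highest in the differentiating cells. Dusp6 was at 42.6 CPM (37.0 to 48.8) in primitive streak-like and 41.5 CPM (33.2 to 51.3) in trophoblast-like cells, which overlap, then at 23.7 CPM in formative or primed and 21.0 CPM in mesoderm-like cells, which also overlap. It was at 8.07 CPM in the Slc7a3-high, 7.59 CPM in the naive pluripotent-like and 2.63 CPM (1.31 to 4.71) in the Calb2-high cells. With finer clusters, 2 primitive streak-like clusters had Dusp6 at 44.1 CPM (37.7 to 51.3) and 22.7 CPM (17.1 to 29.5). The latter overlaps formative or primed cells, there at 25.3 CPM (21.9 to 29.2). Dusp4 ran from 88.8 CPM (80.7 to 97.5) in primitive streak-like cells through 62.8 CPM (52.5 to 74.6) in trophoblast-like, 34.6 CPM in mesoderm-like and 20.9 CPM in formative or primed cells to 11 CPM in Calb2-high, 6.26 CPM in naive pluripotent-like and 2.69 CPM (0.326 to 9.72) in Slc7a3-high cells. The intervals of the first 4 classes did not overlap one another, but this order depended on the clustering. At Leiden resolution 1, 2 primitive streak-like clusters were at 51.7 CPM (44.7 to 59.4) and 71.0 CPM (60.8 to 82.4), both overlapping trophoblast-like cells at 65.2 CPM (54.3 to 77.6), mesoderm-like cells at 24.3 CPM overlapped formative or primed cells at 20.8 CPM, and the highest level, 143 CPM (126 to 161), was in 83 cells without a name. The primitive streak-like cluster, with 12.6% of LB cells, held 36.8% of the Dusp4 UMIs of LB.

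Spred1 was highest in mesoderm-like cells, at 31.3 CPM (27.7 to 35.3), and trophoblast-like cells, at 29.95 CPM (23.0 to 38.4), and lowest in Calb2-high cells, at 3.35 CPM (1.83 to 5.62). At resolution 1 its highest level, 39.6 CPM (32.1 to 48.4), was in 113 primitive streak-like cells. Etv4 was highest in trophoblast-like cells, at 51.7 CPM (42.4 to 62.5), and formative or primed cells, at 44.6 CPM (40.2 to 49.3), with 24.1 CPM in naive pluripotent-like and 11.5 CPM in Calb2-high cells. Mesoderm-like cells were at 37.2 CPM (33.3 to 41.5), which overlaps the formative or primed interval. At resolution 1 they were at 48.4 CPM (42.5 to 55.0), beside 47.7 CPM (42.9 to 52.9) in formative or primed cells. The other inhibitors had narrower ranges at this resolution. Spry2 ranged from 14.3 CPM in Calb2-high to 36.5 CPM in mesoderm-like cells, Spred2 from 12.7 CPM in Calb2-high to 26.7 CPM in primitive streak-like cells, Spry1 from 4.78 CPM in Calb2-high to 14.0 CPM in trophoblast-like cells, and Spry4 from 2.87 CPM in Calb2-high to 12.1 CPM in trophoblast-like cells. At resolution 1, Spry2 ranged further, from 10.04 CPM (5.34 to 17.2) in 52 cells to 72.1 CPM (60.2 to 85.6) in 66 cells. By point value the Calb2-high cluster was the lowest of the 7 for 7 members, all but Dusp4 and Etv5. Its intervals overlapped those of other clusters for some of these, such as Spry1 and Spry4, and other genes were not counted in this way. At resolution 1, Spry1, Spry2, Spry4 and Spred1 each had a lower point value in another cluster than in the Calb2-high one.

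Etv5 ran the other way. It was highest in naive pluripotent-like cells, at 90.0 CPM (85.5 to 94.7), with 84.8 CPM (65.1 to 108) in Slc7a3-high and 78.4 CPM (70.2 to 87.4) in Calb2-high cells, and lowest in mesoderm-like cells, at 17.7 CPM (15 to 20.7). At resolution 1 its range was wider, from 5.40 CPM (2.17 to 11.1) in 52 cells to 119 CPM (107 to 131) in 117 cells, both without a name, with 79.9 CPM in the naive pluripotent-like cells. Over the 7 clusters, its log2(CPM + 1) had a Pearson correlation of -0.70 with the mean profile of the 9 members, while the other 8 members had correlations from 0.45 for Spred2 to 0.99 for Dusp6. These are descriptions over 7 clusters of 1 library that share its depth and free RNA, and each member is part of the mean.

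The LBPXRS cells formed 6 clusters, none of which met the rule for a cell type name. They were led by Krt8 and Krt18 (859 cells), Gata2 and Aqp3 (611 cells), the stress-response genes Chac1 and Trib3 (581 cells), the chaperone genes Hspa5 and Pdia6 with mitotic Plk1 (290 cells), Amt and Upf1 (284 cells), and Asb3 and Eif4a1 (80 shallow cells with a median of 3336.5 UMIs and of 0.0448% mitochondrial UMIs, against 2.11% to 3.24% in the other clusters). For 6 of 9 members (Dusp6, Spry1, Spry4, Spred1, Spred2 and Etv4) the lowest of the 7 LB clusters lay above the highest of the 6 LBPXRS clusters, which held for 6.36% of the 12618 genes. Dusp6 in the lowest LB cluster was at 2.63 CPM and in the highest LBPXRS cluster at 1.30 CPM. Etv4 had 11.5 CPM against 7.54 CPM, Spred2 12.7 CPM against 7.84 CPM, and Spred1 only 3.35 CPM against 2.92 CPM. The order is one of point values. The counting intervals of the 2 clusters compared overlapped for Dusp6, Spry1, Spred1 and Etv4 and lay apart for Spry4 and Spred2, and in the 80 shallow cells the interval of a gene at 0 reaches 9.67 CPM. Clusters of Dusp4, Spry2 and Etv5 overlapped between the libraries. Etv5 ranged from 29.2 to 48.2 CPM over the 5 larger LBPXRS clusters and was at 91.7 CPM (63.9 to 128) in the 80 shallow cells, where it rested on 35 UMIs. With finer clusters (15 in LB and 13 in LBPXRS) the count was 2 of 9, Spry1 and Spry4, against 1.51% of genes.

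**Figure D2:**
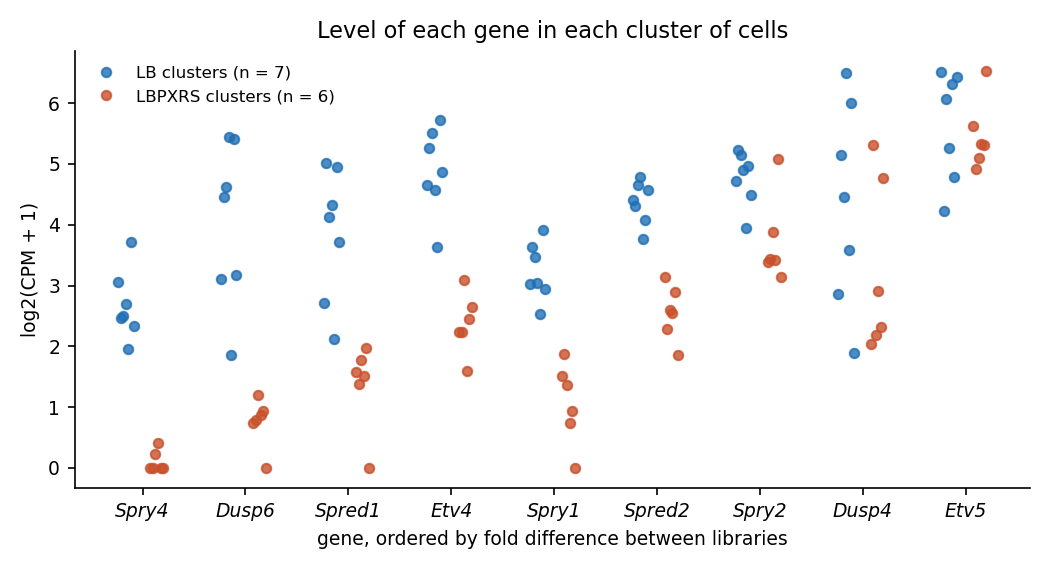
Level of each of the 9 genes as log2(CPM + 1) in each cluster of cells; every point is 1 cluster, 7 of LB in blue and 6 of LBPXRS in orange, and genes are ordered by fold difference. The LB points lie above all LBPXRS points for Spry4, Dusp6, Spred1, Etv4, Spry1 and Spred2, and the point clouds overlap for Spry2, Dusp4 and Etv5.

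Dusp4 and Spry2 had their highest levels in different LBPXRS clusters. The Gata2- and Aqp3-high cluster, 22.6% of LBPXRS cells, held 480 of the 643 Dusp4 UMIs (74.7%). Dusp4 was at 38.8 CPM (35.4 to 42.4) in these cells and at 4.13 CPM over the other LBPXRS cells, a 9.39-fold difference (7.84 to 11.3), although Dusp4 itself was left out of the clustering. The 38.8 CPM is above the 6.26 CPM of naive pluripotent-like LB cells and below the 88.8 CPM of primitive streak-like ones. Of the 68 LBPXRS cells with at least 3 Dusp4 UMIs, 59 were in this cluster. The 80 shallow cells had 26.2 CPM from 10 UMIs, with a wide interval of 12.6 to 48.2.

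The Amt- and Upf1-high cluster, 10.5% of LBPXRS cells, held 214 of the 697 Spry2 UMIs (30.7%), so that most Spry2 UMIs lay in other cells. Spry2 was at 32.9 CPM (28.7 to 37.6) there and at 10.7 CPM over the other cells, a 3.09-fold difference (2.62 to 3.64). This level lies within the range of the LB clusters, whose highest was 36.5 CPM. Dusp4 was not raised in the same cells, with 4.0 CPM (2.61 to 5.86), and Spry2 was at 9.78 CPM (8.11 to 11.7) in the Gata2- and Aqp3-high cells. After each cell was thinned to 5000 UMIs, Spry2 was found in 3 of 120 cells with Dusp4, 2.50% (0.519 to 7.13), and in 6.44% of cells without it, intervals that overlap.

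Dusp6, Spry4, Spry1 and Spred1 left small amounts in LBPXRS, mostly as single UMIs. The 45 Dusp6 UMIs lay in 45 cells, 1 in each, with levels between 0.664 and 1.30 CPM in the 5 larger clusters, whose intervals overlap, and 0 UMIs in the 80 shallow cells, where the interval reaches 9.67 CPM. The 4 Spry4 UMIs lay in 4 cells. The 89 Spry1 UMIs lay in 87 cells and the 108 Spred1 UMIs in 104, so that 2 and 4 cells had more than 1. Spry1 was at 2.67 CPM (1.84 to 3.74) in the Gata2- and Aqp3-high cells, 1.88-fold over the other cells (1.18 to 2.94). Etv4 was less even, with 37 of its 184 cells at 2 or more UMIs and its highest level among the larger clusters, 7.54 CPM (6.04 to 9.30), in the Chac1- and Trib3-high cells, 2.10-fold over the other cells (1.59 to 2.75). The 296 Spred2 UMIs lay in 275 cells, with the highest level, 7.84 CPM (6.49 to 9.39), in the Krt8- and Krt18-high cells, 1.62-fold over the others (1.27 to 2.06). Etv5 remained common, in 1292 of the 2705 cells (47.8%), 473 of them with 2 or more UMIs. Of the Dusp6-positive LBPXRS cells, 1 carried a barcode that LB also held, and 0 of the Spry4-positive ones did.

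No LBPXRS cluster is known to lack these genes, so the part of the remaining UMIs that is free RNA was not measured.

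**Figure D3:**
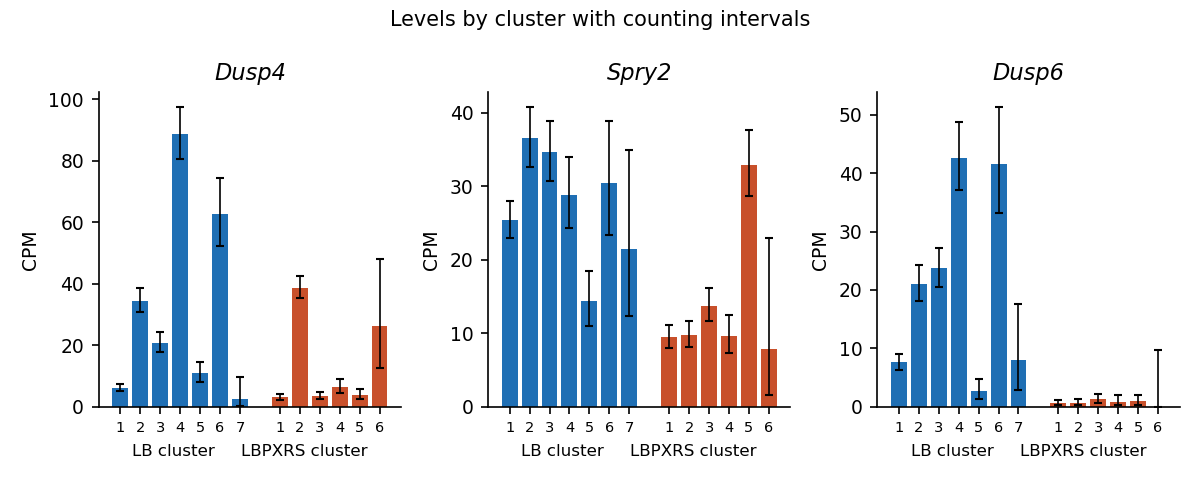
Levels of Dusp4, Spry2 and Dusp6 in CPM in each LB cluster (blue) and each LBPXRS cluster (orange), with exact 95% counting intervals; clusters are numbered by size within a library, and each panel has its own scale from 0. Dusp4 stands at 38.8 CPM in LBPXRS cluster 2, led by Gata2 and Aqp3, Spry2 at 32.9 CPM in LBPXRS cluster 5, led by Amt and Upf1, and Dusp6 stays at or below 1.30 CPM in each LBPXRS cluster.

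Shares of cells were compared after thinning to 5000 UMIs, which left out 50 LB and 84 LBPXRS cells that were shallower. The share with Dusp6 was 7.79% in LB (6.57 to 9.15) but 0.534% in LBPXRS (0.292 to 0.895), while unthinned cells gave 27.0% and 1.66%. Spry4 was seen in 2.42% of LB cells (1.75 to 3.26) but in 0 of 2621 LBPXRS cells, for which the exact upper limit is 0.141%, while unthinned cells gave 11.5% and 0.148%. Etv5 was the most often found member in both, in 23.9% (21.9 to 26.0) and 16.9% (15.4 to 18.4). Etv4 was in 11.6% and 2.25%, Spry2 in 11.4% and 6.26%, Spred2 in 9.23% and 3.59%, Dusp4 in 9.12% and 4.58%, Spred1 in 7.39% and 1.18%, and Spry1 in 4.44% and 0.649%. For each of the 9 genes the 2 intervals did not overlap, and each share was lower in LBPXRS, but other genes were not counted in this way.

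At least 1 of the 9 genes was seen in 58.6% of thinned LB cells (56.3 to 61.0) but in 31.3% of LBPXRS cells (29.5 to 33.1). Etv5 gave much of the remainder in LBPXRS. It held 48.5% of the member UMIs there against 28.8% in LB, and without it the shares of cells were 45.8% (43.5 to 48.2) and 17.8% (16.3 to 19.3). At least 3 members were found together in 103 LB cells, 5.94% (4.88 to 7.16), and in 7 LBPXRS cells, 0.267% (0.107 to 0.549). The summed level of the 9 genes was 216 CPM in LB and 79.2 CPM in LBPXRS, 2.72-fold lower (2.62 to 2.82).

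**Figure D4:**
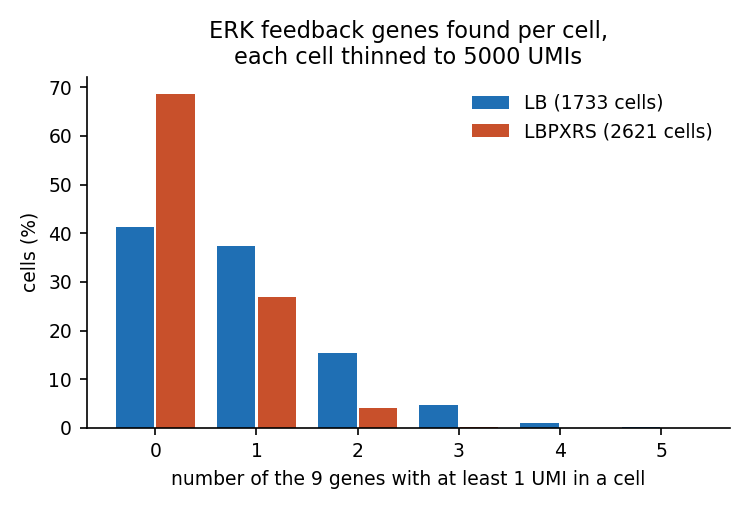
Percentage of cells by the number of the 9 genes found with at least 1 UMI, after thinning each cell to 5000 UMIs, for 1733 LB cells (blue) and 2621 LBPXRS cells (orange). No member was found in 41.4% of LB cells and 68.7% of LBPXRS cells, and cells with 3 or more members were 5.94% of LB and 0.267% of LBPXRS.

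The spread over single LB cells differed from gene to gene. For thinned counts, the Fano factor (variance over mean, 1 for pure counting noise) was 2.35 for Dusp4, rank 22 from the top among the 6857 genes with a mean in the range of the members, whose median was 1.03. The highest LB cell held 30 Dusp4 UMIs. The values for Etv4 (1.24), Spry2 (1.18), Etv5 (1.12), Spry1 (1.12), Spry4 (1.11), Spred1 (1.09), Dusp6 (1.09) and Spred2 (1.04) were much closer to 1. The factor also depends on the mean, which ran from 0.0260 for Spry4 to 0.289 for Etv5. Its order is therefore not an order of relative spread. In LBPXRS, Dusp4 again had the highest value, 1.29, followed by Spry2 at 1.20 and Etv4 at 1.19. Dusp6, Spry1 and Spred1 were between 0.989 and 0.995, but no thinned LBPXRS cell held more than 1 UMI of any of them. That alone sets the factor just under 1, so it gives no reading of their spread.

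Of the 36 pairs of members in thinned LB cells, 28 had a higher share of cells with one gene among cells with the other than among cells without it, and 8 a lower share. In LBPXRS these counts were 16 and 12, with the intervals apart in both directions for 0 pairs, and other genes were not counted in this way. In LB the intervals of these shares lay apart in both directions for 1 pair, Spred1 with Spred2. Of 135 thinned LB cells with Dusp6, 15.6% had Dusp4 (9.89 to 22.8), against 8.57% of cells without Dusp6 (7.25 to 10.1), and 17.8% had Spry2 (11.7 to 25.3), against 10.8% (9.34 to 12.5), so that both pairs of intervals overlap. Spred2 was in 17.2% of 128 cells with Spred1 (11.1 to 24.9) and 8.60% (7.27 to 10.1) of those without. Etv5 was in 18.5% of cells with Dusp6 (12.4 to 26.1) and 24.3% (22.3 to 26.5) of those without, which also overlap. The pairs named were chosen after their values were seen. These shares pool cell classes with different levels, and counts this sparse carry little information on single cells.

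The rest of the pathway was read from lists chosen with earlier results of these data known, by the same fold lines (11.6% of all genes at least 2-fold lower and 8.53% at least 2-fold higher). The cascade itself, from adaptors to kinases, differed little. Of its 28 measured genes, 0 were at least 2-fold lower and 1 was at least 2-fold higher, with a median log2 ratio of -0.13. Frs3, an FGF receptor adaptor, had 8.79 CPM in LB and 27.6 CPM in LBPXRS (log2 ratio 1.55), Lamtor2, a scaffold of the lysosomal MEK complex, had 0.98, and the lowest were the phosphatase gene Ptpn11 at -0.78 and Mapk3, which encodes ERK1, at -0.74.

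Ligands differed more. Of 14 measured FGF ligand and receptor genes, 8 were at least 2-fold lower and 2 higher, Fgf4 and Fgfr4. Fgf4 stood at 39.5 CPM (37.7 to 41.4) in LB but at 205 CPM (201 to 209) in LBPXRS, a log2 ratio of 2.35, and it was also higher than in naive pluripotent-like LB cells, at 1.46. Fgf8, a ligand of the primitive streak, had 113 CPM (110 to 116) and 0.733 CPM (0.519 to 1.01). Fgfbp1, a carrier of FGF ligands, had 9.87 CPM and 0.540 CPM, and Fgf3 was close to equal at 6.92 and 6.69 CPM. In the library in which all 9 members were lower, Fgf4 was higher and Fgf8 lower. A tie between ligand levels and member levels was not tested.

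Among 16 other measured ERK targets, 9 were at least 2-fold lower, 4 of them at least 4-fold, and 0 at least 2-fold higher, with a median log2 ratio of -1.24. Myc had 599 UMIs in LB and 8 in LBPXRS (log2 ratio -3.62), and Phlda1, an ERK-induced gene, 1538 and 123 (-3.37). Mcl1, a survival factor, was at -0.16 and the ephrin receptor gene Epha4 at 0.77. The members' own relatives were mixed. Of 9 other measured DUSP genes, 4 were at least 2-fold lower (Dusp2, Dusp3, Dusp5 and Dusp10, named after their values were seen) and 1 higher, Dusp16, with 6.46 CPM in LB and 14.8 CPM in LBPXRS. Dusp3 had 19.0 CPM and 4.86 CPM, and Dusp7 was at 0.55. Dusp9, an ERK phosphatase of embryonic stem cells, was at -0.99 against all LB cells and at 0.35 against the naive pluripotent-like ones, a turn of sign like that of Dusp4. Etv1, a close relative of Etv4 and Etv5, was at -1.89, and Spry3 and Spred3 had a mean below 1 CPM over the libraries.

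Of 9 other measured ETS factors, 2 were at least 2-fold lower (Etv6 at -1.12 and, named after its value was seen, Ets1) and 1 higher, Ets2, with 5.32 CPM in LB and 12.1 CPM in LBPXRS, and the median was -0.04. Elk3 was at 0.34 and Gabpa at -0.18. Of 14 other inhibitors, from Cbl to Nf1, 2 were at least 2-fold lower (Il17rd and Flrt3) and 0 higher, with a median of -0.43. Il17rd, also named Sef, which holds MEK and ERK in the cytoplasm, had 14.4 CPM and 3.72 CPM (log2 ratio -1.71), Rasa1 was at -0.85, Lrig3 at 0.58 and Rasal2 at 0.32. Against naive pluripotent-like LB cells, where 10.6% of genes were at least 2-fold higher, the list medians were 0.03 for the cascade, -0.32 for FGF ligands and receptors, -0.56 for other ERK targets, 0.40 for other DUSP genes, 0.30 for other ETS factors and 0.03 for other inhibitors. The member median of -1.58 lay below these 6 medians. Etv1, the single measured gene of the list of other Sprouty, Spred and Etv relatives, was lower still, at -1.67.

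**Figure D5:**
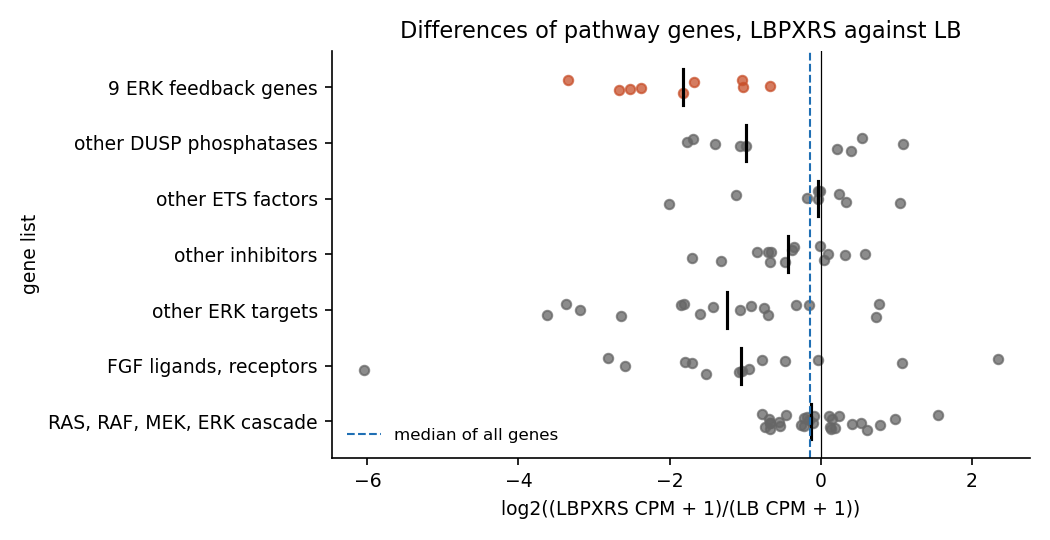
Log2 ratio of LBPXRS to LB, from log2((CPM + 1)/(CPM + 1)), for the 9 members (orange) and the measured genes of 6 pathway lists (grey); every point is 1 gene, black bars are medians and the dashed line is the median of all genes, -0.14. The 9 members lie between -3.35 and -0.68, the cascade genes lie around the dashed line, and Fgf8 at -6.04 and Fgf4 at 2.35 are the extremes of the ligand list.

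The genes with the level profile most like that of the members over the 7 LB clusters were Id1 (Pearson correlation 0.994), Slc9a3r1 (0.987), Tamm41 (0.986), Capn10 (0.983) and Dhx38 (0.983), out of 4783 candidates with at least 20 CPM in LB. Their own log2 ratios of LBPXRS to LB were -3.23, -1.35, -0.18, -0.50 and -1.10, so the likeness within LB went with unequal differences between the libraries. A correlation over 7 clusters chosen as the highest of 4783 is a description only.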

How the data were processed

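The deposited matrices hold raw UMI counts of every gene for every barcode. The authors ran Cell Ranger 4.0.0, as the file headers state, on build mm10 per the submitters' processing notes; the annotation is not given in the sources used here. Members and lists were chosen with earlier results of these data known. Barcodes with at least 1000 genes and at most 10% mitochondrial UMIs were kept, removing 225 of 2008 in LB and 406 of 3111 in LBPXRS. Scrublet (scanpy 1.11.5) marked 12 LB and 14 LBPXRS cells as doublets, so few that it may have missed some, and these were kept. UMIs were summed over kept cells and scaled to 1000000 (CPM), with a pseudocount of 1 for log2 ratios. The 3′ UMI counts do not scale with gene length, but capture can differ between genes, so levels were not ranked across genes. Fold intervals are exact binomial ones conditional on the summed counts. Gene positions are from GENCODE on GRCm38, where 99.8% of identifiers matched. Each library was clustered on its own (2000 variable genes, 30 components, 15 neighbours, Leiden resolution 0.5). Clusters were named from listed markers, with at least 3 raised 2-fold, by thresholds set after clusters had been seen. Shares of cells were taken after thinning cells to 5000 UMIs. Other genes named are the 2 lowest and 2 highest of each list with a mean of at least 5 CPM, and the 5 genes most like the members over LB clusters. Outside that rule, and after their values were seen, Dusp2, Dusp5, Dusp10, Ets1, Flrt3, Fgfr4, Etv1, Spry3 and Spred3 were named to identify small counts or relatives. The functions were tested on simulated data. Alternatives included TMM scaling (edgeR 4.0.16), other barcode filters, other thinning depths and Leiden resolution 1.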

Additional observations from a re-analysis of the deposited data

How the results depend on the processing

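The member median and the counts past 2-fold and 4-fold kept their direction under all 10 alternatives. The count past 4-fold ran from 3 against naive pluripotent-like LB cells to 5 with a pseudocount of 0.1. That past 2-fold ran from 6 with TMM scaling to 8. The median of -1.82 was -2.26 with a pseudocount of 0.1 and -1.27 against naive pluripotent-like LB cells found at Leiden resolution 1 (157 cells), an alternative added once the data had been seen. Against naive pluripotent-like LB cells, Dusp4 reversed to 0.89, or to 1.13 with those found at resolution 1, where Spry2 also reversed, to 0.25. The other 7 members were lower in LBPXRS in each of the 10 settings. The share of cells with any member depended on depth: without thinning it was 93.3% in LB and 69.4% in LBPXRS, and at 10000 UMIs 81.1% and 49.7%, in the same order. The 6 members whose clusters did not overlap between libraries were 2 at resolution 1, where clusters are smaller, and 6 with clusters of at least 100 cells (11.1% of all genes), added in the same way. With no filter on low genes, 1.67% of genes were at least 4-fold lower and 7.29% at least 2-fold. The 4 Spry4 and 45 Dusp6 UMIs in LBPXRS limit what can be said of single cells. No paired analysis was possible because each condition had 1 library.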

Other observations

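Clusters rich in Spry2 were found in both libraries and shared some of their leading genes. In LB at Leiden resolution 1, a cluster of 66 cells had Spry2 at 72.1 CPM against 27.0 CPM in the other LB cells, 2.67-fold (2.21 to 3.21), and in LBPXRS the cluster of 284 cells described above had 32.9 CPM against 10.7 CPM. Of the 10 leading genes of each cluster, 3 were shared, Amt, Upf1 and Hsf2, and the other 7 of each differed. With LBPXRS also clustered at resolution 1, its Spry2-rich cluster held 197 cells with Spry2 at 52.6 CPM (45.7 to 60.1), and 2 leading genes were shared, Amt and Upf1. Amt, which encodes a subunit of the mitochondrial glycine cleavage system, stood at 160 CPM in the LB cluster and 27.4 CPM in the other LB cells, and at 156 CPM and 52.7 CPM in LBPXRS. Upf1, a factor of nonsense-mediated decay, was 4.23-fold over the other cells in LB (3.76 to 4.75) and 2.55-fold in LBPXRS (2.26 to 2.89). Hsf2, a heat shock factor, was 3.62-fold and 2.54-fold over them. The clusters were formed on these genes, Spry2 aside, and picked for their Spry2 level, so this is a description with no test.

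The LB cluster without a name that had the highest Dusp4 level at Leiden resolution 1 held 83 cells and was led by Dnd1, Rab6b and Lefty1. Among its raised markers were the germ cell genes Prdm1, Dnd1 and Nanos3, but their list's median was too low for that name. In LBPXRS at that resolution, 2 clusters had Gata2 and Aqp3 among their leading genes, of which one of 219 cells had Dusp4 at 61.9 CPM (54.6 to 69.9) and one of 224 cells had it at 25.9 CPM (21.6 to 30.8).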
